A study of Saccharomyces cerevisiae with 25 samples.

Results

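The genes of the core machinery for ER-associated degradation, the disposal of misfolded proteins of the endoplasmic reticulum (ER), were followed by ribosome profiling and RNA-seq in budding yeast under ER stress. The 10 genes were chosen by their function, with earlier results of these data known. All 10 were found among the 6696 ORFs counted in each library. They are HRD1 (YOL013C), HRD3 (YLR207W), USA1 (YML029W) and DER1 (YBR201W), which encode the Hrd1 ubiquitin ligase complex, YOS9 (YDR057W) and MNL1 (YHR204W, also HTM1), which encode proteins that select glycoprotein substrates, and SSM4 (YIL030C, also DOA10), UBC6 (YER100W), UBC7 (YMR022W) and CUE1 (YMR264W), which encode the Doa10 ligase and the ubiquitin-conjugating enzymes with their membrane anchor. Ribosome profiling counts the mRNA fragments covered by ribosomes (footprints), and translation efficiency (TE) is the ratio of footprints to RNA-seq reads of a gene.

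Misfolded proteins of the ER are recognised, ubiquitinated at the membrane, pulled into the cytosol by the Cdc48 ATPase and degraded by the proteasome. Hrd1 is a membrane-embedded RING ligase for luminal and membrane substrates, whereas Doa10 handles membrane proteins with lesions facing the cytosol or nucleus. N-glycans trimmed by the mannosidase Mnl1 mark luminal glycoproteins for the lectin Yos9. Tunicamycin (Tm) blocks N-glycosylation, and the unfolded protein response (UPR) that follows is driven in yeast by the transcription factor Hac1.

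Cells of W303 (W303-1a, with the markers MATa, ade2, his3, leu2, trp1, ura3 and can1) were harvested 0, 1, 2 and 4 h after Tm was added at 1 µg/mL, and cells of eS7A-WT and eS7A-4KR at 0 and 4 h after the same dose. Both eS7A strains carry the same markers, lack the chromosomal RPS7a and RPS7b genes (RPS7a::HisMX6, RPS7b::natNT2) and express 3HA-tagged eS7A, a protein of the small ribosomal subunit, from the plasmid pRS315. It is intact in eS7A-WT, and in eS7A-4KR 4 lysines that the ligase Not4 ubiquitinates are arginine. All 25 libraries were used, 13 of footprints and 12 of RNA. Each group had 2 libraries per assay, except W303 at 1, 2 and 4 h with 1 library per assay and eS7A-WT at 0 h with 1 RNA-seq library used here. The study describes its replicates as independent biological ones. For W303 after Tm the spread was taken from the untreated pair.

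Library totals were 28309641 to 49246452 for RNA-seq and 3423907 to 33858553 for footprints. RPS7B, the gene of eS7B, had 17.9 to 26.8% of the RPS7A reads in the 5 RNA-seq libraries of W303 and 0.248 to 0.435% in the 7 of the strains that lack it. As footprints, the share was 33.9 to 50.5% with the gene and 6.78 to 12.6% without it. The authors kept footprints of different lengths in different strains, and in eS7A-WT also of different lengths at 0 and 4 h. What this does to a comparison of strains, or to the footprint and TE changes of eS7A-WT after Tm, was not tested. The a-specific genes STE2, STE6 and BAR1 were read at medians of 148 to 170 reads per 1000000 (RPM) over the 12 RNA-seq libraries and MFA1 at 6.13, against 1.95 for the alpha-specific STE3 and 15.9 for SAG1. Libraries came from bulk cultures and were scaled by their own totals and a normalization factor (TMM), so fewer cells and less RNA per cell cannot be told apart.

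In the R64 annotation, which serves the sacCer3 build of the files, none of the 10 genes overlaps another annotated gene. HRD1 lies on the reverse strand of chromosome XV (301380 to 303035) and SSM4 on that of chromosome IX (296050 to 300009). The others are on forward strands, namely HRD3 on XII (556788 to 559289), USA1 on XIII (217362 to 219878), DER1 on II (623576 to 624211), YOS9 on IV (565927 to 567555), MNL1 on VIII (506319 to 508709) and UBC6 on V (359562 to 360314). UBC7 (318680 to 319177) and CUE1 (795805 to 796416) share chromosome XIII with USA1, far apart from it. Reads were counted over the coding sequence of each.

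Before treatment the 10 genes spanned the middle of the range of expression. Levels between genes are compared per length, as RPM per 1000 counted codons. In untreated W303 the mRNA density was highest for CUE1 (267), UBC7 (219), UBC6 (144) and SSM4 (141), the last at the 66.6th percentile of the genes measured in both assays. The others followed at 62.3 for HRD1, 60.3 for MNL1, 52.0 for both USA1 and HRD3, 42.5 for DER1 and 35.3 for YOS9, the last at the 20.7th percentile. The neighbours HRD1 and MNL1, USA1 and HRD3, and UBC6 and SSM4 did not differ beyond the spread of the 2 libraries. Footprint density put UBC6 (256), UBC7 (255) and CUE1 (218) first and MNL1 (26.7) last. Relative to the median gene, TE in untreated W303 was 1.84-fold for UBC6, the tail-anchored conjugating enzyme, and 1.49-fold for YOS9, whereas that of MNL1 was only 0.457-fold, at the 12.6th percentile. The 3 partners of Hrd1 stood close to it in footprint density before treatment, at 1.16 times the HRD1 value for HRD3, 0.996 for USA1 and 0.887 for DER1.

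The first comparison asks how mRNA of these genes changed after Tm. All 4 genes of the Hrd1 complex and UBC7 rose in every strain and at every time, DER1 the most, whereas MNL1 fell in W303 and eS7A-WT and SSM4 fell there too except at 1 h, a direction that total counts turned in W303. UBC6 did not pass the test in any of the 5 comparisons, though with total counts it rose in W303 at 2 and 4 h and in eS7A-WT. A gene was called when the adjusted p of edgeR's quasi-likelihood test was below 0.01, with adjustment over all genes tested. In W303 at 1 h, 5 of the 10 genes rose (18.4% of all genes tested did) and 1 fell (18.4% of all). At 2 h, 6 rose (35.6% of all) and 2 fell (34% of all), and the same counts of 6 and 2 at 4 h compare with 37% and 36.5% of all genes. In eS7A-WT at 4 h, 5 rose (30.1% of all) and 2 fell (29.8% of all), and in eS7A-4KR 6 rose (17.3% of all) and 0 fell (13.5% of all). For that count of 0, no gene had an unadjusted p below 0.05 in the downward direction either, and DESeq2 called 0. The median change of the 10 genes was 0.47, 0.89 and 0.83 on the log2 scale in W303 at 1, 2 and 4 h, 0.48 in eS7A-WT and 0.44 for eS7A-4KR, where the median of all genes tested lay between 0.00062 and 0.035.

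DER1 encodes a rhomboid-like protein through which luminal substrates enter the membrane. Its mRNA stood at 7.77 and 8.54 RPM in untreated W303 and at 37.3, 53.6 and 57.7 after 1, 2 and 4 h. In eS7A-WT it went from 10.5 to 72.5 and 67.9, and in eS7A-4KR from 9.22 and 9.66 to 38.5 and 39.9. Every treated library was above every untreated one, and the treated eS7A-4KR libraries were the lowest at 4 h. The log2 change was 2.18 ± 0.12 (SE), 2.71 ± 0.12 and 2.83 ± 0.12 in W303, 2.77 ± 0.15 in eS7A-WT and 2.11 ± 0.12 for eS7A-4KR, and the adjusted p ranged from 1.2e-13 to 9.4e-10 by edgeR. In mRNA density DER1 moved from the 26.0th percentile of genes in untreated W303 to the 82.9th at 4 h.

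HRD1, the ligase itself, was read at 31.5 and 34.7 RPM in untreated W303 and at 93.6, 112 and 99.6 after 1, 2 and 4 h. It went from 32.4 to 77.6 and 78.8 in eS7A-WT and from 35.8 and 36.3 to 59.3 and 63.5 in eS7A-4KR. The untreated libraries of all strains lay together, and no treated library overlapped them. The log2 change was 1.48 ± 0.10, 1.75 ± 0.10 and 1.60 ± 0.10 in W303, 1.31 ± 0.13 in eS7A-WT and 0.83 ± 0.11 in eS7A-4KR.

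USA1 encodes the scaffold that ties Der1 to Hrd1. Its mRNA was at 42.8 and 42.4 RPM in untreated W303, then at 95, 135 and 117. In eS7A-WT it went from 40.3 to 111 and 118, and in eS7A-4KR from 46.3 and 45.9 to only 75.4 and 74.6. The log2 change was 1.14 ± 0.09, 1.66 ± 0.09 and 1.47 ± 0.09 in W303, 1.54 ± 0.13 in eS7A-WT and 0.76 ± 0.11 in eS7A-4KR, so that the eS7A-4KR libraries at 4 h were all below those of both other strains.

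HRD3 encodes the luminal partner that stabilises Hrd1 and receives substrates. It rose less than DER1, HRD1 and USA1, except that in W303 at 1 h it rose about as much as USA1. Its RPM were 42.6 and 42.1 before and 96.8, 110 and 89.4 after Tm in W303. They went from 42.8 to 71.8 and 74.1 in eS7A-WT and from 52.2 and 48.9 to 70.2 and 67.3 in eS7A-4KR. The treated libraries of both eS7A strains lay close together. The log2 change was 1.18 ± 0.10, 1.37 ± 0.09 and 1.09 ± 0.09 in W303, 0.81 ± 0.12 in eS7A-WT and 0.50 ± 0.10 in eS7A-4KR, and the last lost its call without untreated RNA-seq replicate 2 of eS7A-4KR (0.45, adjusted p = 0.0152) and with total counts.

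UBC7 encodes the conjugating enzyme that serves both ligases and is held at the membrane by Cue1. It was read at 32.1 and 31.9 RPM in untreated W303 and at 56.4, 94.9 and 85.8 after Tm. It went from 36.9 to 102 and 102 in eS7A-WT and from 39.8 and 41.1 to 68.5 and 75.4 in eS7A-4KR. The W303 change reached 1.56 ± 0.10 at 2 h from 0.80 ± 0.10 at 1 h, and was 1.44 ± 0.10 at 4 h. In eS7A-WT it was 1.5 ± 0.17 and in eS7A-4KR 0.89 ± 0.14. CUE1, the anchor of Ubc7, did not move with it. CUE1 was at 47.1 and 51.1 RPM before and 50.1 to 52.3 after Tm in W303, with changes of 0.04 to 0.08 that did not pass the test. With total counts they were 0.54 at 2 h and 0.76 at 4 h and passed, where the medians of all genes were 0.50 and 0.73. With TMM, CUE1 was called in eS7A-4KR only, at 37.5 and 39.0 before and 51.3 and 44.7 after (0.38 ± 0.11, adjusted p = 0.0091). That call was lost when any of 6 libraries was left out (0.27 to 0.48, adjusted p = 0.0109 to 0.141), and the difference of the CUE1 change between eS7A-4KR and eS7A-WT was 0.30 ± 0.18 (adjusted p = 0.18).

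**Figure D1:**
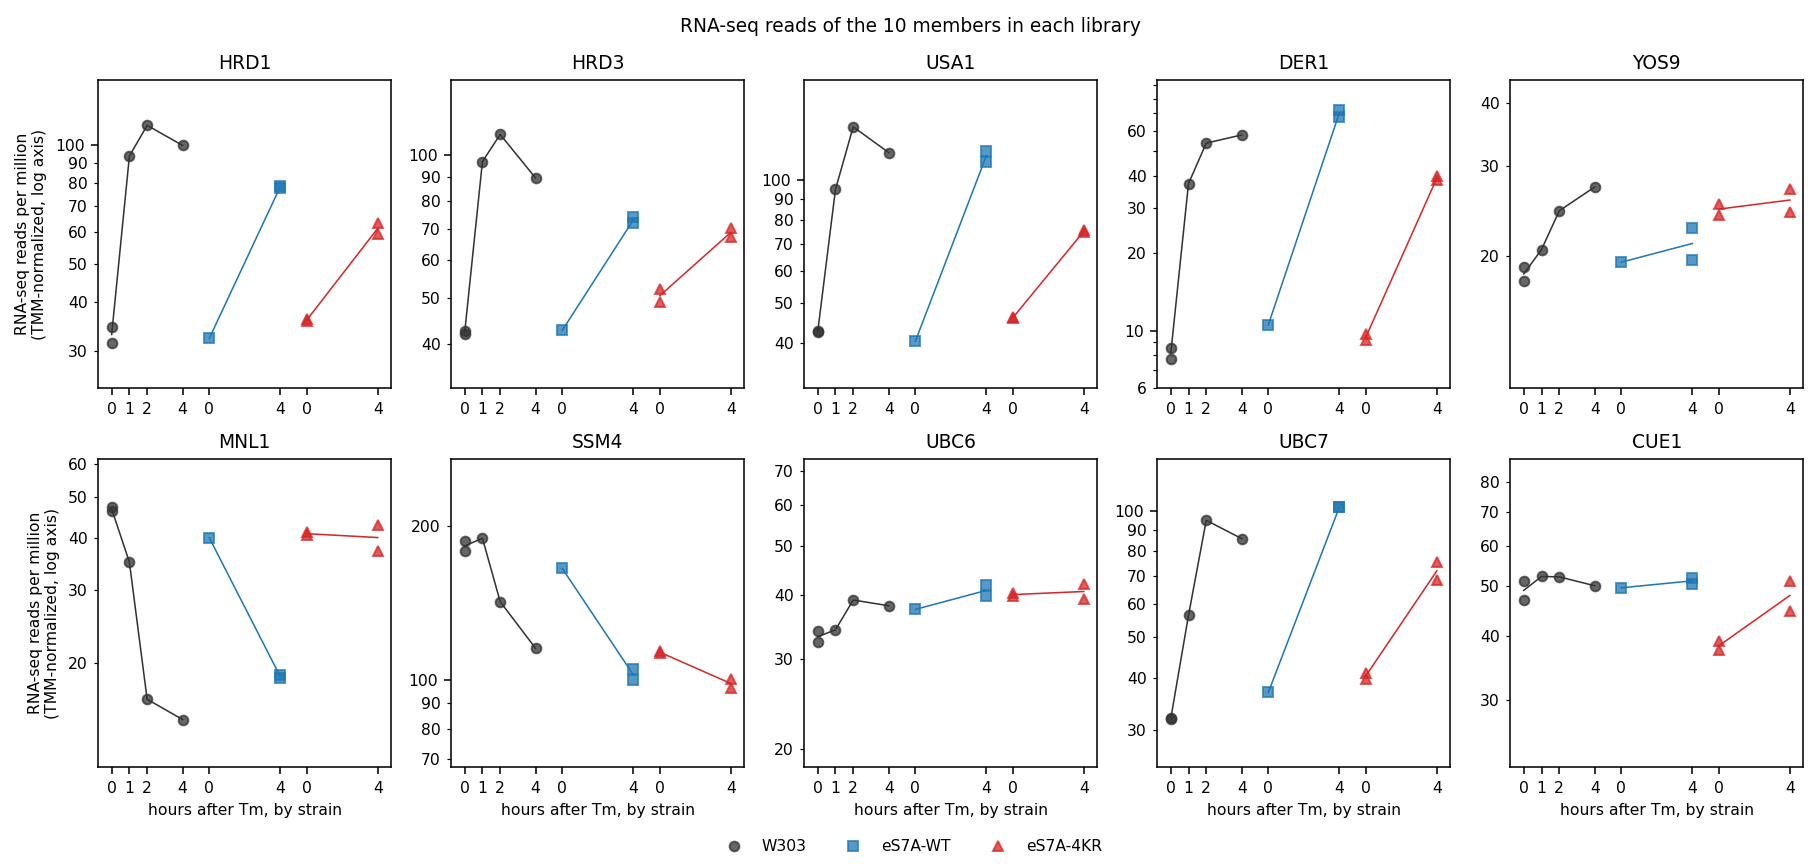
RNA-seq RPM (TMM-normalized, log axis) of the 10 genes against hours after Tm, with 1 point per library, W303 as circles, eS7A-WT as squares, eS7A-4KR as triangles and lines through the group means. DER1 went from 7.77 and 8.54 to 57.7 in W303 at 4 h, while MNL1 went from 47.4 and 46.3 to 14.7 there and stayed at 37.2 to 42.9 in eS7A-4KR.

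MNL1 went the other way. The gene of the mannosidase that creates the glycan signal was read at 47.4 and 46.3 RPM in untreated W303 and at 35.0, 16.4 and 14.7 after 1, 2 and 4 h. In eS7A-WT it went from 40.0 to 18.5 and 18.7, but in eS7A-4KR it was at 40.5 and 41.3 before and at 42.9 and 37.2 after Tm. The treated and untreated libraries overlapped in eS7A-4KR and in no other strain. The log2 change was -0.44 ± 0.11, -1.52 ± 0.12 and -1.67 ± 0.12 in W303, -1.07 ± 0.17 in eS7A-WT and 0.03 ± 0.14 in eS7A-4KR. The 1 h call in W303 was lost without either untreated footprint library (-0.44 for both), with DESeq2 (-0.48) and with total counts (-0.37). It was lost as well without a filter and in a fit of all 25 libraries. The eS7A-WT call was lost with total counts. By mRNA density MNL1 fell from the 38.9th to the 6.55th percentile of genes in W303.

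YOS9 encodes the lectin that reads the glycan trimmed by Mnl1. Its mRNA went from 19.1 and 17.9 RPM to 20.6, 24.6 and 27.3 in W303, a rise of 0.40 ± 0.12 at 2 h and 0.58 ± 0.12 at 4 h, both lost with DESeq2. The 2 h call was also lost without either untreated W303 footprint library (0.40 for both). Without a filter, with a replicate block or in a fit of all 25 libraries it was lost too. In eS7A-WT YOS9 was at 19.5 before and 22.8 and 19.6 after Tm, and in eS7A-4KR at 25.4 and 24.1 before and 24.5 and 27.1 after, with changes of 0.16 ± 0.15 and 0.12 ± 0.12 that did not pass.

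SSM4, the gene of the Doa10 ligase, had the most reads of the 10 before treatment, and the greatest length, with 1300 codons counted in RNA-seq. It was read at 187 and 178 RPM in untreated W303 and at 189, 142 and 115 after 1, 2 and 4 h. It went from 165 to 99.9 and 105 in eS7A-WT and from 113 and 114 to 96.2 and 100 in eS7A-4KR. The log2 change was -0.37 ± 0.11 at 2 h and -0.66 ± 0.11 at 4 h in W303, -0.65 ± 0.14 in eS7A-WT and -0.14 ± 0.11 in eS7A-4KR, of which the first 3 passed. These falls were relative to the median gene, and with total counts the W303 values were 0.09 and 0.06 and the eS7A-WT value -0.03, none of them called. The 2 h call was also lost without either untreated W303 footprint library (-0.37 for both) and with DESeq2. It was lost as well under both other filters and in a fit of all 25 libraries. UBC6 was at 32.3 to 42.0 RPM in all 12 libraries, and its changes of 0.03 to 0.23 did not pass the test. With total counts they were 0.69 and 0.92 in W303 at 2 and 4 h and 0.78 in eS7A-WT, and these passed. The medians of all genes were then 0.50, 0.73 and 0.65.

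The scaling set the direction of small changes. With total counts in place of TMM the median of all genes shifted by 0.73 for mRNA and 0.97 for footprints in W303 at 4 h and by 0.65 and 0.86 in eS7A-WT, against 0.16 and 0.11 in eS7A-4KR. In W303 at 2 and 4 h, 71.4 and 76.9% of the genes called for mRNA then rose, where with TMM 51.2 and 50.4% did. The same share was 74.3% instead of 50.3% in eS7A-WT and 72.4% instead of 56.1% in eS7A-4KR. For footprints it was 60.0, 73.6 and 79.4% instead of 41.6, 49.3 and 49.5% in W303, 76.4% instead of 49.8% in eS7A-WT and 65.7% instead of 47.7% in eS7A-4KR. Changes here are relative to the TMM scale, on which the rises of HRD1, HRD3, USA1, DER1 and UBC7 in W303 and eS7A-WT mRNA were smaller than with total counts.

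The footprints ask whether ribosomes followed the mRNA. HRD1, HRD3, USA1, DER1 and UBC7 rose in footprints in all 5 comparisons, MNL1 fell in all 5, and SSM4 fell where its mRNA did, with W303 at 4 h turned to 0.09 by total counts. Of these calls, 2 of HRD3 and 3 of MNL1 were lost under alternatives given with each gene, and all those of SSM4 with total counts. In W303, 5 of 10 genes rose in footprints at 1 h (11.7% of all genes tested did) and 1 fell (16.4% of all), 6 rose at 2 h (29.8% of all) and 2 fell (30.7% of all), and 7 rose at 4 h (32% of all) and 2 fell (32.7% of all). In eS7A-WT 6 rose (34.6% of all) and 3 fell (34.9% of all), and in eS7A-4KR 5 rose (18.1% of all) and 2 fell (19.8% of all), the falls being 1 with DESeq2 and 0 with the newer quasi-likelihood method of edgeR. With the replicate number as a block within each assay, which pairs the eS7A footprint libraries, 7 rose in eS7A-4KR, the 2 added being UBC6 (0.27, adjusted p = 0.0056) and YOS9 (0.32, adjusted p = 0.0086).

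DER1 had 8.04 footprint RPM in both untreated W303 libraries and 49.3, 66.6 and 71.6 after Tm. It went from 7.81 and 7.78 to 61.5 and 74.8 in eS7A-WT and from 11.1 and 12 to 46.8 and 52.7 in eS7A-4KR. Before treatment both eS7A-4KR libraries were above those of the other strains, and at 4 h both were below them. The change was 3.13 ± 0.17 in W303 at 4 h, 3.15 ± 0.13 in eS7A-WT and 2.12 ± 0.13 in eS7A-4KR.

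HRD1 went from 22.9 and 25.7 to 72.8, 99.1 and 101 footprint RPM in W303, from 25.4 and 21.9 to 75 and 67.1 in eS7A-WT and from 30.3 and 25.7 to 47.4 and 52.3 in eS7A-4KR. Its changes were 2.01 ± 0.13 at 4 h in W303, 1.61 ± 0.12 in eS7A-WT and 0.84 ± 0.12 in eS7A-4KR. USA1 went from 37.1 and 37.0 to 85.7, 130 and 112 in W303, from 39.6 and 32.7 to 124 and 128 in eS7A-WT and from 37.8 and 33.2 to 68.3 and 67.6 in eS7A-4KR. For USA1 the eS7A-WT libraries stood nearly at the W303 peak and those of eS7A-4KR far below it. UBC7 changed by 1.65 ± 0.12 in W303 at 4 h, 1.61 ± 0.14 in eS7A-WT and 0.78 ± 0.14 in eS7A-4KR, whose untreated libraries (74.7 and 90.4) were already above those of eS7A-WT (49.2 and 52.6).

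HRD3 had the smallest footprint rise of these 5 genes in each comparison. In W303 at 1 h and in eS7A-4KR, however, it was hardly below UBC7 (0.75 against 0.77, and 0.77 against 0.78). Its footprints went from 44.2 and 41.5 RPM to 74.2, 72.2 and 61.6 in W303 and from 39.7 and 34.9 to 46.3 and 47.0 in eS7A-WT, but from 35.9 and 31.1 to 57.5 and 56.3 in eS7A-4KR. The untreated pairs of the eS7A strains overlapped, and at 4 h both eS7A-4KR libraries were above those of eS7A-WT. The change was 0.50 ± 0.12 in W303 at 4 h (0.42, adjusted p = 0.0275, without untreated footprint replicate 2, and 0.49, adjusted p = 0.045, with DESeq2), 0.35 ± 0.11 in eS7A-WT and 0.77 ± 0.11 in eS7A-4KR. The eS7A-WT call was lost when any of 7 libraries was left out (0.26 to 0.39, adjusted p = 0.0105 to 0.0753), with the newer quasi-likelihood method (0.33, adjusted p = 0.043) and without the filter on low counts (0.32, adjusted p = 0.016).

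MNL1 footprints were few, from 27 to 503 counts per library. They went from 21.8 and 20.3 RPM to 13.1, 5.21 and 4.92 in W303, from 19.4 and 14.9 to 5.03 and 3.48 in eS7A-WT and from 7.59 and 6.23 to 4.6 and 2.93 in eS7A-4KR. The untreated eS7A-4KR libraries were thus low before Tm, although their mRNA level was that of eS7A-WT. The change was -0.73 ± 0.20 at 1 h and -2.11 ± 0.28 at 4 h in W303, -1.94 ± 0.22 in eS7A-WT and -0.90 ± 0.22 in eS7A-4KR. The 1 h call was lost without either untreated W303 footprint library (adjusted p = 0.0266 and 0.0383) and with DESeq2 (-0.75, adjusted p = 0.058), and under 4 other alternatives its adjusted p was 0.014 to 0.059. The eS7A-4KR call was lost without untreated replicate 1 of its own footprints (-0.68, adjusted p = 0.0369), without treated replicate 2 (-0.59, adjusted p = 0.056), with the newer quasi-likelihood method (-0.92, adjusted p = 0.014) and with total counts (-0.74, adjusted p = 0.15). The eS7A-WT call was lost with total counts (-1.14, adjusted p = 0.0102).

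Of the remaining genes, SSM4 lost footprints in W303 (-0.60 ± 0.12 at 2 h and -0.87 ± 0.12 at 4 h) and in eS7A-WT (192 and 203 RPM before, 95.6 and 91.0 after, -1.05 ± 0.11). These falls were lost with total counts, under which the W303 value at 4 h was 0.09 and that of eS7A-WT -0.22. In eS7A-4KR SSM4 was at 93.5 and 80.9 before and 76.8 and 79.4 after Tm, so its untreated libraries were already near the treated ones of eS7A-WT. YOS9 rose in W303 by 0.54 ± 0.15 at both 2 and 4 h, lost without either untreated W303 footprint library (adjusted p = 0.0133 to 0.0477), and in eS7A-WT changed by -0.07 ± 0.13. UBC6 gained 0.38 ± 0.12 in W303 at 4 h and 0.35 ± 0.12 in eS7A-WT. The W303 call was lost without either untreated footprint library (0.33 and 0.41) and with DESeq2. It was lost as well without a filter, with a replicate block and in a fit of all 25 libraries. In eS7A-WT 8 of the 14 left-out libraries ended the call (0.23 to 0.35), as did DESeq2, the newer quasi-likelihood method and no filter. CUE1 was called at -0.38 ± 0.13 in eS7A-WT and at -0.39 ± 0.12 in eS7A-4KR, calls that were lost without any 1 of 8 and of 12 libraries (-0.38 to -0.21 with adjusted p = 0.0107 to 0.169, and -0.46 to -0.32 with adjusted p = 0.0101 to 0.0783). With total counts the eS7A-WT value of CUE1 was 0.46 and that of eS7A-4KR -0.25, neither of them called.

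**Figure D2:**
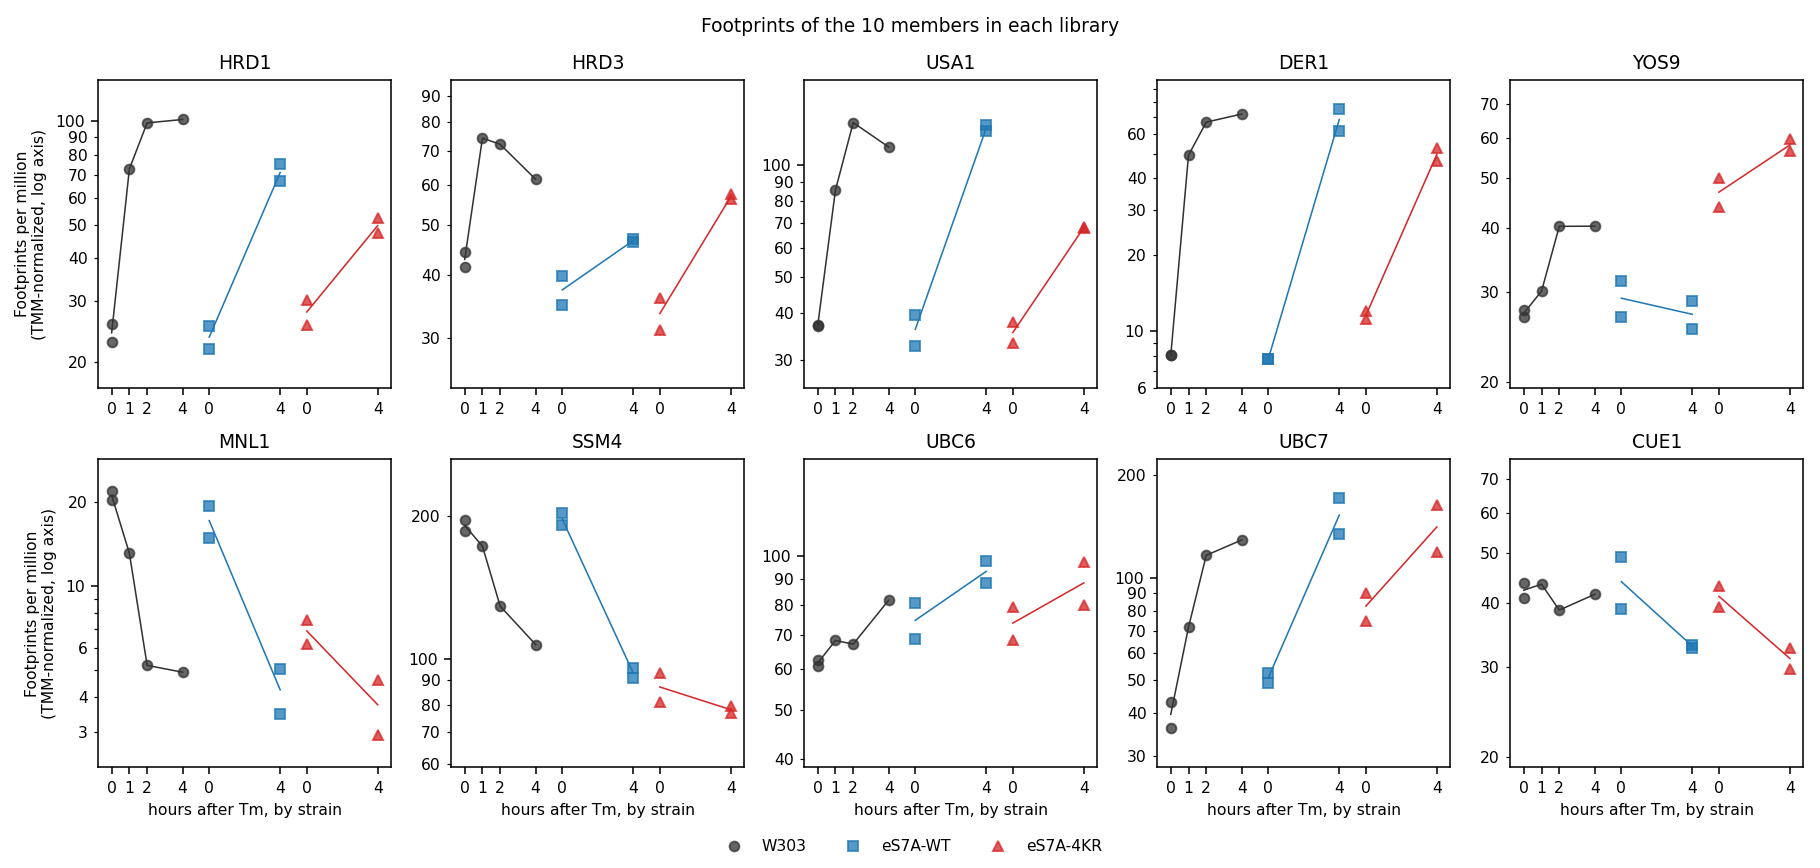
Footprint RPM (TMM-normalized, log axis) of the 10 genes against hours after Tm, with 1 point per library, W303 as circles, eS7A-WT as squares, eS7A-4KR as triangles and lines through the group means. HRD3 stood at 57.5 and 56.3 in treated eS7A-4KR against 46.3 and 47.0 in eS7A-WT, the reverse of HRD1 (47.4 and 52.3 against 75 and 67.1).

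TE, the change of footprints beyond that of mRNA, was called for 0 of the 10 genes after Tm in any strain or time by edgeR without a replicate block. Over all genes, TE was called in W303 for 0.0927% at 1 h, 2.39% at 2 h and 3.95% at 4 h, in eS7A-WT for 4.39% and in eS7A-4KR for 0.9%. At an unadjusted p below 0.05 there were 1, 1 and 2 of the 10 in W303, 4 in eS7A-WT and 2 in eS7A-4KR. DESeq2 called 1 gene in eS7A-4KR and 0 in the other comparisons. With a replicate block over both assays, edgeR called 1 in W303 at 2 h, 1 at 4 h and 2 in eS7A-4KR. With a block within each assay it called 2 in eS7A-4KR and 1 in eS7A-WT. HRD3 deviated furthest in W303, with a TE change of -0.43 ± 0.15, -0.64 ± 0.15 and -0.58 ± 0.15 in W303, -0.46 ± 0.17 in eS7A-WT and 0.27 ± 0.15 in eS7A-4KR (adjusted p = 0.36, 0.019, 0.027, 0.099 and 0.54). Every combination of single libraries gave a negative TE change for HRD3 in W303 at 4 h (-0.61 to -0.49, 4 combinations) and eS7A-WT (-0.56 to -0.32, 8 combinations) and a positive one in eS7A-4KR (0.13 to 0.51, 16 combinations). These combinations reuse the same libraries and are not independent. How often they agree in sign over all genes was not computed. Without W303 untreated RNA-seq replicate 2, the 2 h value of HRD3 passed (adjusted p = 0.0086). MNL1 changed in TE by -0.87 ± 0.28 in eS7A-WT and -0.92 ± 0.26 in eS7A-4KR (adjusted p = 0.055 and 0.07). CUE1 changed by -0.78 ± 0.17 in eS7A-4KR (adjusted p = 0.011), just short of the threshold, and passed it when any 1 of 4 eS7A-WT footprint libraries was left out (adjusted p = 0.0039 to 0.0091). For DER1, the gene that rose most, the TE change lay between 0.01 and 0.39 in the 5 comparisons, beside mRNA changes of 2.11 to 2.83. With total counts, 52.6, 80.6 and 85.1% of the genes called for TE in W303 and 80.6% of those in eS7A-4KR rose, instead of 40, 69.8, 67.1 and 42% with TMM.

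**Figure D3:**
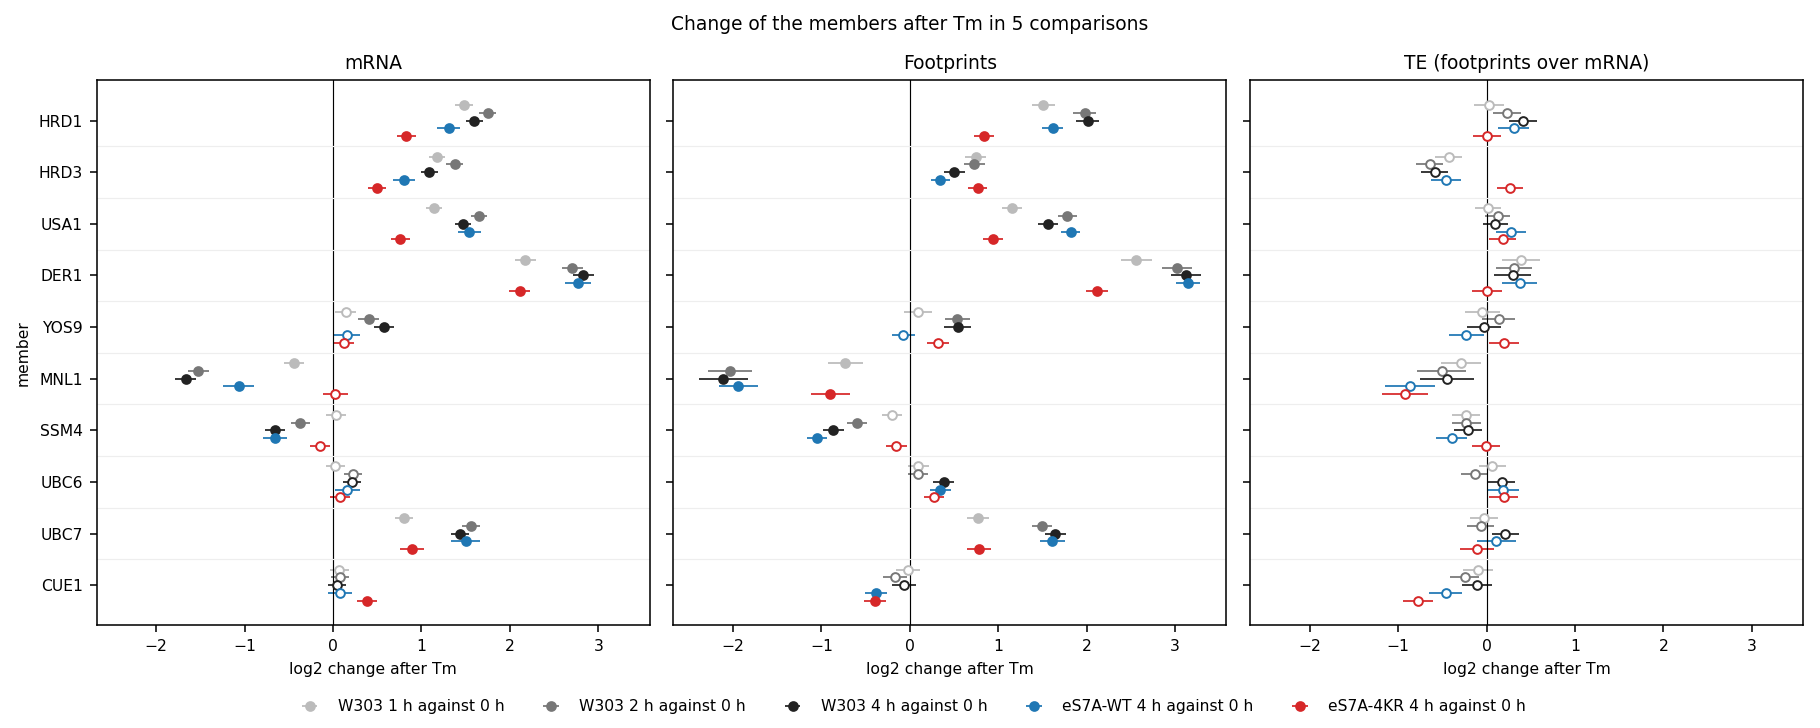
Log2 change after Tm of mRNA, footprints and TE for the 10 genes in 5 comparisons, with bars of 1 standard error and filled points where the adjusted p was below 0.01. HRD1, HRD3, USA1, DER1 and UBC7 lie to the right of 0 in mRNA and footprints, MNL1 to the left except for its mRNA in eS7A-4KR (0.03), and no TE point is filled.

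The balance of footprints over the complex differed with time. Relative to HRD1 in footprint density, DER1 went from 0.887 in untreated W303 to 1.82, 1.8 and 1.90 after 1, 2 and 4 h, and HRD3 from 1.16 to 0.671, 0.479 and 0.400. For eS7A-WT the ratio went from 0.885 to 2.57 for DER1 and from 1.04 to 0.432 for HRD3. In eS7A-4KR DER1 went from 1.11 to 2.68, whereas HRD3 stayed at 0.788 before and 0.751 after Tm. USA1 kept a ratio of 0.722 to 1.16 throughout. The SSM4 density went from 3.25 times that of HRD1 in untreated W303 to 0.438 times at 4 h. These ratios are means over libraries and were not tested.

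The next comparison asks whether eS7A-4KR responded differently from eS7A-WT. The rises of the Hrd1 complex genes other than HRD3, and of UBC7, were smaller in eS7A-4KR footprints, and the falls of MNL1 and SSM4 were smaller too. For some genes the strains already differed in footprints before Tm. There eS7A-4KR was lower for MNL1 (-1.30) and SSM4 (-1.17) and higher for UBC7 (0.71) and DER1 (0.57), whereas USA1 and HRD1 were not called. For mRNA, the change in eS7A-4KR minus that in eS7A-WT was called upward for 1 of the 10 genes (19.5% of all genes tested) and downward for 2 (15.1% of all). For footprints it was called upward for 2 (22.9% of all) and downward for 4 (21% of all). For TE it was called for 0 of 10 (0.684% of all), with 1 gene (HRD3) at an unadjusted p below 0.05 and 0 called by DESeq2. Changes after Tm were called for fewer genes in eS7A-4KR than in eS7A-WT over the genome as well, as the percentages above show.

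USA1 had the clearest difference, -0.78 ± 0.17 for mRNA (adjusted p = 0.00048) and -0.88 ± 0.16 for footprints (adjusted p = 3.8e-05), and both passed under every alternative run. None of these left out the single untreated eS7A-WT RNA-seq library, on which the mRNA value rests. For DER1 the difference was -0.66 ± 0.19 in mRNA (adjusted p = 0.006) and -1.03 ± 0.18 in footprints (adjusted p = 4e-05). The mRNA call of DER1 was lost without any 1 of the 6 RNA-seq libraries that could be left out (-0.70 to -0.60, adjusted p = 0.0118 to 0.032). HRD1 and UBC7 differed by -0.78 ± 0.16 and -0.83 ± 0.20 in footprints (adjusted p = 0.00029 and 0.00089), while their mRNA differences of -0.48 ± 0.17 and -0.61 ± 0.22 did not pass (adjusted p = 0.025 for both). The UBC7 value passed when any 1 of 4 libraries was left out (adjusted p = 0.0068 to 0.0093). The sign of the HRD3 difference was opposite in mRNA (-0.30 ± 0.16, adjusted p = 0.13) and footprints (0.42 ± 0.15, adjusted p = 0.024), with 0.73 ± 0.22 in TE (adjusted p = 0.13), and with total counts the footprint value was -0.25. Its footprint difference passed without untreated replicate 1 of eS7A-4KR footprints (0.56, adjusted p = 0.008) and with the replicate block within each assay (0.43, adjusted p = 0.0055).

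MNL1 differed by 1.10 ± 0.23 in mRNA (adjusted p = 0.00026) and 1.04 ± 0.31 in footprints (adjusted p = 0.0059), and SSM4 by 0.51 ± 0.18 (adjusted p = 0.02) and 0.90 ± 0.16 (adjusted p = 4.8e-05). The footprint call of MNL1 was lost when any 1 of 4 footprint libraries was left out (0.67 to 0.92, adjusted p = 0.016 to 0.109). With total counts, under which the median of all genes differed by -0.49 in mRNA and -0.72 in footprints, the MNL1 and SSM4 calls were lost (0.64 and 0.40 for MNL1, 0.20 for SSM4 footprints) and those of USA1 and DER1 grew. Of all genes called, 39.3% in mRNA and 25.9% in footprints were then upward, instead of 56.3 and 52.2% with TMM, and 74.4% in TE instead of 44.7%. YOS9, UBC6 and CUE1 did not pass in either assay, with differences between -0.08 and 0.39.

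**Figure D4:**
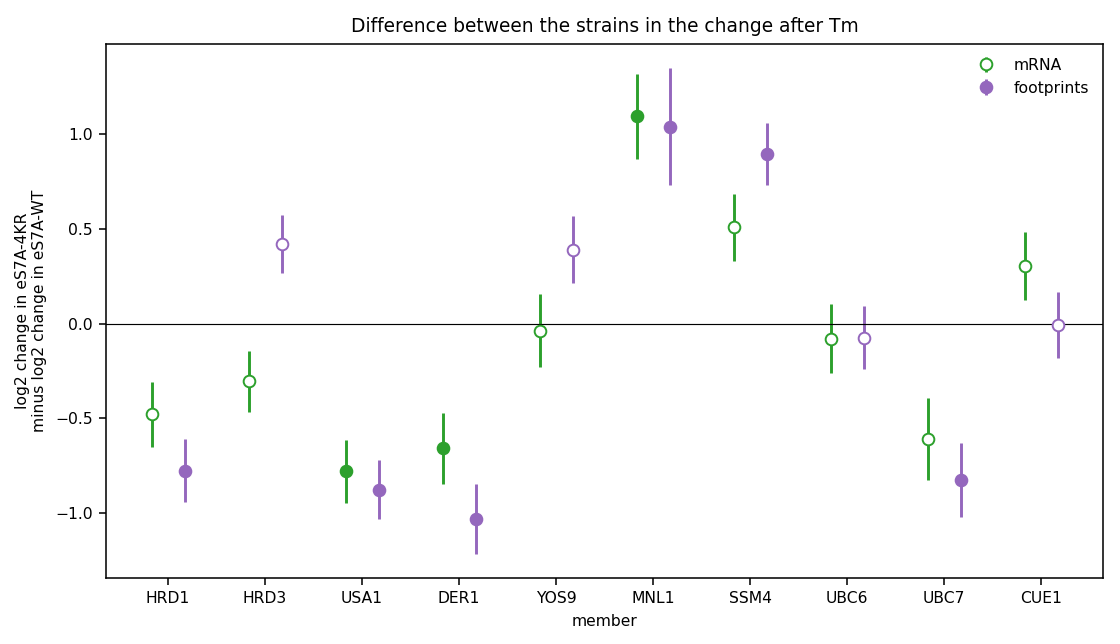
Log2 change after Tm in eS7A-4KR minus that in eS7A-WT for mRNA and footprints of the 10 genes, with bars of 1 standard error and filled points where the adjusted p was below 0.01. DER1 (-1.03), USA1 (-0.88), UBC7 (-0.83) and HRD1 (-0.78) lie lowest in footprints and MNL1 (1.04) and SSM4 (0.90) highest.

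The strains were also compared at each time. In untreated cells mRNA was called higher in eS7A-4KR for 0 of the 10 genes (21.2% of all), with 0 at an unadjusted p below 0.05 and 0 by DESeq2, and lower for 1 (20.9% of all), SSM4 (-0.58 ± 0.14, and -0.57 with adjusted p = 0.0109 without untreated RNA-seq replicate 1 of eS7A-4KR). CUE1 was at 37.5 and 39.0 in eS7A-4KR and 49.7 in eS7A-WT (-0.41 ± 0.14, adjusted p = 0.014) and passed without any 1 of 3 untreated footprint libraries (adjusted p = 0.0071 to 0.0099). At 4 h mRNA was higher in eS7A-4KR for 1 gene (28.2% of all), MNL1 (1.09 ± 0.14), and lower for 4 (21.7% of all). These were DER1 (-0.85 ± 0.11), USA1 (-0.62 ± 0.10), UBC7 (-0.51 ± 0.13) and HRD1 (-0.36 ± 0.11). With total counts the MNL1 call was lost (0.65), and 26.6% of the called genes were higher in eS7A-4KR instead of 56.5%. The HRD1 call was lost without any 1 of the 4 RNA-seq libraries of 4 h (-0.41 to -0.32, adjusted p = 0.0147 to 0.0539) and that of UBC7 without 3 of them (-0.52 to -0.45, adjusted p = 0.0128 to 0.0354), namely replicate 1 of eS7A-4KR and both replicates of eS7A-WT.

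In footprints the strains already differed before Tm. At 0 h, 3 of the 10 genes were higher in eS7A-4KR (26.4% of all) and 2 lower (26.5% of all), and at 4 h 1 was higher (28.7% of all) and 3 lower (25.7% of all). YOS9 was higher at both times (0.69 ± 0.12 and 1.08 ± 0.13). UBC7 was higher in eS7A-4KR by 0.71 ± 0.14 at 0 h, with -0.12 ± 0.14 at 4 h (adjusted p = 0.45). SSM4 was lower in eS7A-4KR at -1.17 ± 0.11 at 0 h, with -0.27 ± 0.12 at 4 h (adjusted p = 0.046, and 0.0051 with the replicate block within each assay). MNL1 was lower at -1.30 ± 0.18 at 0 h, with -0.26 ± 0.25 at 4 h (adjusted p = 0.39). DER1 was higher at 0 h (0.57 ± 0.14) and lower at 4 h (-0.46 ± 0.12). USA1 and HRD1 were called only at 4 h (-0.90 ± 0.11 and -0.53 ± 0.11), with 0 h values of -0.02 ± 0.11 and 0.25 ± 0.12. HRD3 was at -0.14 ± 0.11 and 0.28 ± 0.11, of which the second passed with the block (adjusted p = 0.0081) and without untreated replicate 1 of eS7A-4KR footprints (0.34, adjusted p = 0.008). The 0 h call of DER1 was lost without eS7A-WT untreated footprint replicate 1 (0.57, adjusted p = 0.0111) and with the newer quasi-likelihood method. Its 4 h call was lost without eS7A-4KR replicate 1 (-0.33, adjusted p = 0.0487) or eS7A-WT replicate 2 (-0.25, adjusted p = 0.104) of the 4 h footprints, and that of HRD1 without eS7A-4KR replicate 1 (-0.41, adjusted p = 0.015) or eS7A-WT replicate 1 (-0.39, adjusted p = 0.0212). With total counts the median of all genes shifted by 0.53 at 0 h, and 85.1% of the called genes were then higher in eS7A-4KR instead of 49.9%. The 0 h calls of SSM4 (-0.57, adjusted p = 0.0111) and MNL1 (-0.72, adjusted p = 0.082) were lost on that scale, as were the 4 h calls of HRD1 (-0.64) and DER1 (-0.55), where the median shifted by -0.11.

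TE differed between the strains at both times for MNL1 and at 4 h for YOS9. At 0 h, TE was called for 1 of the 10 genes (2.39% of all), MNL1 at -1.29 ± 0.25 (adjusted p = 0.0023). At 4 h it was called for 2 (4.55% of all), MNL1 at -1.35 ± 0.29 and YOS9 at 0.81 ± 0.18 (adjusted p = 0.0036 for both). In YOS9 the footprints stood at 56.5 and 59.6 in eS7A-4KR and 28.8 and 25.3 in eS7A-WT at 4 h, over mRNA of 24.5 and 27.1 against 22.8 and 19.6, and the footprints of the pairs did not overlap at 0 h either (43.9 and 50.0 against 31.4 and 26.8). The 0 h call of MNL1 was lost without either RNA-seq library of eS7A-4KR or footprint replicate 1 of eS7A-WT (-1.30 to -1.08, adjusted p = 0.0106 to 0.012), its 4 h call without any 1 of 5 libraries (-1.35 to -0.96, adjusted p = 0.012 to 0.146) and that of YOS9 without any 1 of 4 (0.70 to 0.79, adjusted p = 0.0126 to 0.0392). Without eS7A-WT footprint replicate 1 of 4 h, the 0 h TE of DER1 passed as well (0.83, adjusted p = 0.0099). With total counts, which shifted the TE median of all genes by 0.61 at 0 h and 0.36 at 4 h, none of these 3 calls passed, while those of UBC7 (1.17) and DER1 (1.33) at 0 h did. Of all genes called, 90.7 and 96.3% were then higher in eS7A-4KR instead of 44.4 and 39.5%. The single RNA-seq library of untreated eS7A-WT stands behind every mRNA and TE difference at 0 h and every mRNA and TE change of eS7A-WT. It also stands behind every mRNA and TE difference between the changes of eS7A-4KR and eS7A-WT. Its part in these values was not tested.

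The 30 further genes of the pathway, outside the 10, put these values in context. In W303 at 4 h, 16 of the 30 rose in mRNA (37% of all genes tested did) and 6 fell (36.5% of all). In eS7A-WT 13 rose (30.1% of all) and 6 fell (29.8% of all), and in eS7A-4KR 8 rose (17.3% of all) and 1 fell (13.5% of all). The median change of the 30 was 0.40, 0.31 and 0.01. Among 6 chaperones, 5 rose in each strain, led by KAR2, the ER Hsp70 (2.62 ± 0.14 in W303, 2.62 ± 0.31 in eS7A-WT and 2.59 ± 0.25 in eS7A-4KR). Of 9 genes for extraction by Cdc48, 6 rose in W303, 4 in eS7A-WT and 2 in eS7A-4KR, DFM1, a homolog of DER1, the most (2.41, 2.33 and 1.88). Fewer genes of any kind were called in eS7A-4KR, as the same percentages show, and a difference of this list between the strains was not tested. Of 8 genes for glycan processing and folding, PDI1 alone rose in each strain (1.95, 2.14 and 1.86), and 3, 5 and 1 fell, among them CWH41, glucosidase I (-0.63 in W303 and -0.71 in eS7A-WT) and, in eS7A-4KR, MNL2 (-0.40). Of 4 genes acting after extraction, RAD23, a shuttle to the proteasome, fell in W303 and eS7A-WT (-0.72 and -0.90), and of 3 genes of the Asi ligase of the inner nuclear membrane 2 rose in W303, 2 in eS7A-WT and 0 in eS7A-4KR. Under total counts the W303 values of CNE1, MNL2, ROT2 and YDJ1 at 4 h were 0.12, 0.55, 0.54 and 0.18.

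In mRNA the difference between the strains' changes was called for 7 of the 30. Of these, 5 went upward (19.5% of all genes tested) and 2 downward (15.1% of all). RAD23 was highest (0.71 ± 0.20, lost without any 1 of 4 RNA-seq libraries) and NPL4, a cofactor of Cdc48, lowest (-0.79 ± 0.19). Before Tm, however, NPL4 mRNA was already higher in eS7A-4KR by 1.20 ± 0.14. At 4 h it was still higher by 0.41, with -0.037 under total counts. KAR2 differed by -0.03. HAC1, which encodes the regulator of the response, gained 6.59 in log2 TE where eS7A was intact and 2.53 in eS7A-4KR, a difference of -4.06 ± 0.45. That difference passed with edgeR's older quasi-likelihood method, the one used throughout, and with the newer one had an adjusted p of 0.0326. Before Tm the TE of HAC1 was already higher in eS7A-4KR by 1.91, so part of the difference as computed lay in untreated cells. That call was lost without untreated RNA-seq replicate 1 of eS7A-4KR (1.89). The paper saw almost no footprints on unspliced HAC1 mRNA without Tm in these strains. The footprint counts behind the untreated TE are not given here.

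**Figure D5:**
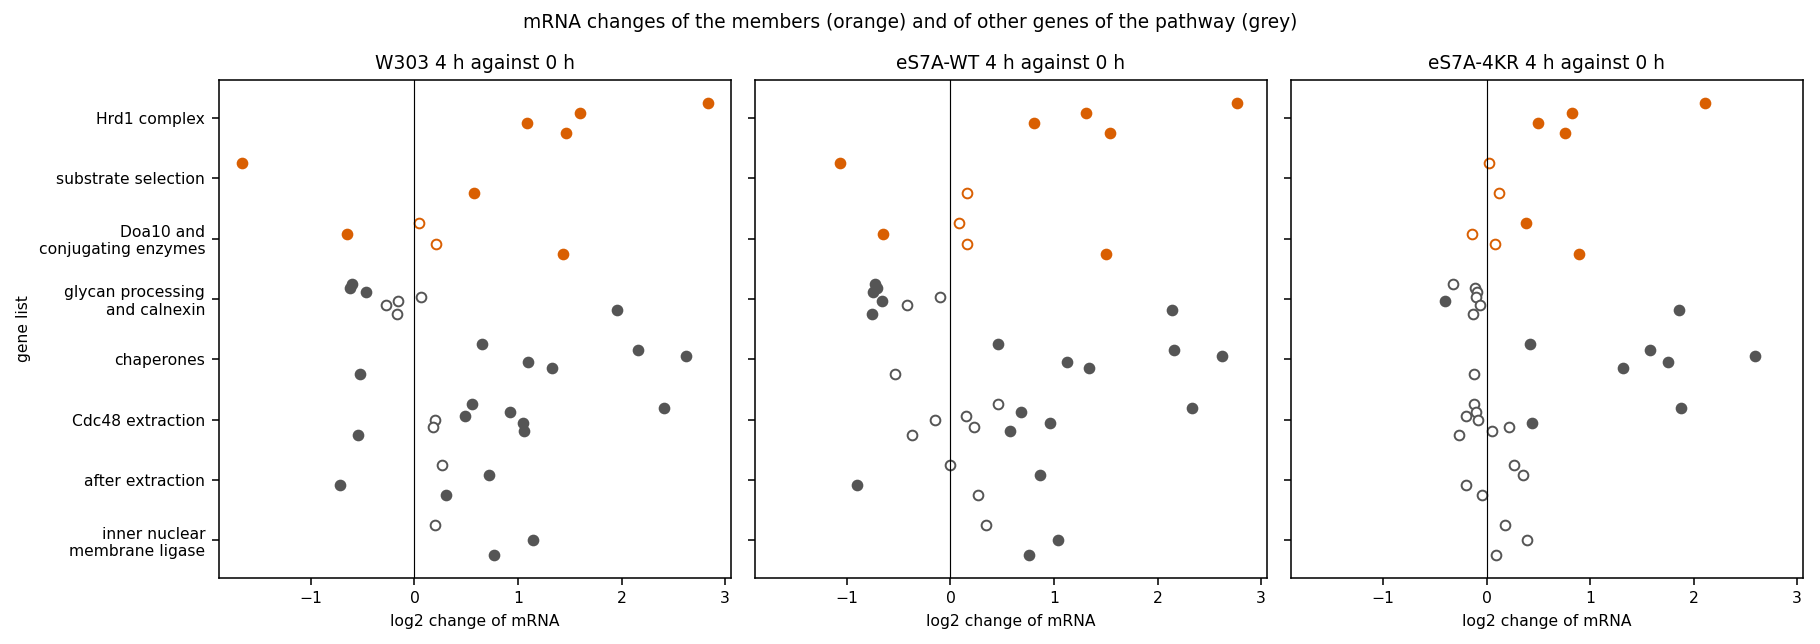
Log2 change of mRNA at 4 h in each strain for the 10 genes (orange) and 30 further genes of the pathway (grey) by list, filled where the adjusted p was below 0.01. The Hrd1 complex genes lie at 1.09 to 2.83 in W303 and at 0.50 to 2.11 in eS7A-4KR.

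Across the 12 RNA-seq libraries, HRD1 moved most like HRD3 and USA1 among the 10 genes, with Pearson correlations of log2 RPM of 0.98 for both, and with DER1 and UBC7 at 0.93 and 0.89. MNL1 ran against these genes at -0.87 to -0.74, and SSM4 against UBC6 at -0.89. CUE1 and UBC7, whose products bind each other, had a correlation of 0.43. Among all other genes, the nearest were NUS1 to HRD1 (0.985), SLY1 to HRD3 (0.961), ZAP1 to USA1 (0.991), YBL029C-A to DER1 (0.992), SMA1 to YOS9 (0.919) and FUI1, the uridine permease, to MNL1 (0.995). YPK3 was nearest to SSM4 (0.986), OSI1 to UBC6 (0.961), HEM15 to UBC7 (0.994) and PMT2, a protein O-mannosyltransferase, to CUE1 (0.923). Over the 7 eS7A libraries alone, ZAP1 and FUI1 were still second nearest of all genes (0.999 and 0.998), while SLY1 ranked 612th (0.908). The libraries share strain, treatment and time, so these values describe them and carry no test.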

How the data were processed

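The files that the authors deposited have no header and hold, for each ORF, whole-number counts of RNA-seq reads or footprints, not normalized. A further deposited column (unit: other) gives the codons over which the authors counted. Footprints were deduplicated by random barcodes, selected by length and assigned to the A-site. The length window depended on the strain and, for eS7A-WT, on the time. The submitters' processing notes name CASAVA 1.8, Bowtie2 2.0.6, TopHat2 2.0.7 and sacCer3. ORFs were named from the R64 annotation.

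Counts were fitted in edgeR 4.0.16 (R 4.3.3) with glmQLFit and glmQLFTest in their older, default form. W303 (10 libraries, 2 residual degrees of freedom) and the eS7A strains (15 libraries, 7) were fitted apart, with a group for each strain, time and assay, TMM factors within each assay and no replicate term. TE was the contrast of footprints against RNA. Tests covered the genes whose count averaged 10 or more in both assays (5392 and 5558), with Benjamini-Hochberg adjustment over all of them and a threshold of 0.01. The ± values are standard errors. Printed RPM used TMM factors over all libraries of an assay, and 0.5 was added before logarithms for correlations and library combinations.

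Genes named are the 10, those of 5 further pathway lists at the extremes or called, HAC1, and the gene nearest to each of the 10 by correlation. The 10 genes and the lists were chosen with earlier results of these data known. Alternatives were TMM over both assays, total counts, DESeq2 1.42.0, the newer quasi-likelihood method, other filters, a threshold of 0.05, replicate blocks, a fit of all 25 libraries and leaving out each replicated library. The lost calls given with each gene are not a full list. The fit was tried on simulated counts for the mRNA change at 4 h in W303 and eS7A-WT only. These counts had the same spread for every gene and no pairing, and TE, footprint and strain contrasts were not tried. Deviations of same-numbered libraries from their group means correlated at 0.47 to 0.64 among eS7A footprints, at -0.34 to 0.03 among eS7A RNA, at -0.03 to 0.10 between the eS7A assays and at -0.02 between those of W303, so the numbers were taken to pair the eS7A footprint libraries, with the pairing read from the data and not stated in the labels. Replicates differed beyond sampling noise. Sequences were not analysed here. Figures used matplotlib 3.10.9, and tables pandas 2.3.3 in Python 3.11.15.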

Additional observations from a re-analysis of the deposited data

Results flagged for a closer look

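The following results stood out because the change after Tm differed between eS7A-4KR and eS7A-WT by the test of that difference itself. In mRNA the difference in log2 change was 1.10 for MNL1, 0.71 for RAD23, -0.66 for DER1, -0.78 for USA1 and -0.79 for NPL4. In footprints it was 1.04 for MNL1, 0.90 for SSM4, -0.78 for HRD1, -0.83 for UBC7, -0.88 for USA1 and -1.03 for DER1. HAC1 differed by -3.39 in footprints and -4.06 in TE, and the TE value did not pass with the newer quasi-likelihood method (adjusted p = 0.0326). Before Tm, the footprints of MNL1, SSM4, UBC7 and DER1 and the mRNA of NPL4 (1.20) already differed between these strains. So did the TE of HAC1 (1.91), a call lost without untreated RNA-seq replicate 1 of eS7A-4KR.

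HRD3 stood out because its TE change at 4 h was negative in W303 for every combination of single libraries, with a median of -0.55 (-0.61 to -0.49), and positive in eS7A-4KR (0.13 to 0.51). The combinations reuse the same libraries, with 1 treated W303 library per assay, and neither change passed the test by edgeR (-0.58 with adjusted p = 0.027 and 0.27 with adjusted p = 0.54). The difference between these strains was not tested. No group was large enough for a search for single deviating libraries.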

How the results depend on the processing

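Changes of single genes were recomputed 6519 times, with 5987 keeping direction and call, 222 losing and 123 gaining a call, 174 moving in sign without a call on either side, and 13 reversing. All 13 reversals came with total counts: in W303 mRNA CNE1 0.12, MNL2 0.55, ROT2 0.54 and YDJ1 0.18 at 4 h and SSM4 0.091 and 0.057 at 2 and 4 h, in W303 footprints at 4 h CUE1 0.89 and SSM4 0.089, in eS7A-WT footprints CUE1 0.46, between strains at 4 h in mRNA HAC1 -0.37, MNL2 -0.081 and NPL4 -0.037, and at 0 h in footprints UBC6 0.57. The cause was not tested. Of 477 recomputed counts of called members, 427 stayed within 1.5 times and 50 did not.

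For TE after Tm (0 of 10 called), a threshold of 0.05 gave 1 in W303 at 2 h, at 4 h and in eS7A-4KR, where DESeq2 and no filter also gave 1. Leaving out a library gave 0 to 1 in W303 at 2 h and in eS7A-4KR. For TE between strains at 0 h (1 called) DESeq2 gave 2, the threshold of 0.05 gave 3, total counts gave 2 and leaving out a library 0 to 2. At 4 h (2 called) the newer method gave 1, total counts 0 and leaving out a library 0 to 2. For the mRNA difference of changes (3 called) the newer method gave 5 and the threshold of 0.05 gave 6, with 2 to 4 when a library was left out. For mRNA between strains at 0 h (1 called) the newer method, no filter and the threshold of 0.05 each gave 2, total counts 0 and leaving out a library 0 to 2, and at 4 h (5 called) leaving out a library gave 3 to 5. For footprints between strains at 4 h (4 called) total counts gave 2 and leaving out a library 2 to 5.

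Replicate numbers paired the eS7A footprint libraries only. Among footprint results, the block within each assay changed the calls given with them in the report and no other of the 10 genes. A replicate block over both assays gave 1 TE call in W303 at 2 h and at 4 h, 2 in eS7A-4KR, 5 mRNA calls for the difference and 2 at 0 h. A block within each assay gave TE calls of 2 in eS7A-4KR, 1 in eS7A-WT and 4 at 0 h, and mRNA calls of 6 for the difference and 2 at 0 h. Over all genes, the TE calls of the difference (38) were 67 with DESeq2, 8 with the newer method, 25 with 10 counts in every library, 97 with the block, 220 with the block within each assay and 70 at a threshold of 0.05. TE calls in W303 at 2 and 4 h (129 and 213) were 55 and 85 with DESeq2, 9 and 15 without a filter, 260 and 441 with the block. In all, 93 of 477 recomputed counts over all genes moved by more than 1.5 times. MNL1 footprints had as few as 27 counts in a library, and W303 after Tm had no replicate.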
